A study of Oncorhynchus gorbuscha with 76 samples.

Results

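The genes described here are chromatin regulators of pink salmon (Oncorhynchus gorbuscha), taken as every gene of the deposited tables whose symbol marks it as a chromatin remodeller, a writer, eraser or reader of histone marks, a Polycomb or heterochromatin protein, a DNA methylation enzyme or a high mobility group protein. The symbol rule, which uses names and no measured value, found 95 members among 40756 genes. It was chosen with earlier results of these data known. Of all genes 32639 carry only a LOC number and 8117 another symbol, so chromatin genes named by a LOC number are not among the members. No symbol matched uhrf1, tet3, ezh1, suz12, dnmt3, hdac1, hdac3, sirt1, smarca4 or prdm1, and nothing is said about them. By role the members were 26 histone methylation writers (lysine methyltransferases, SET domain proteins and PRDM factors), 20 nucleosome remodellers, 9 deacetylases and sirtuins, 8 Polycomb and heterochromatin proteins, 6 histone demethylases, 6 PHD finger readers, 6 acetylation readers, 5 high mobility group proteins, 3 ARID factors, 3 histone acetyltransferases and 3 DNA methylation enzymes.

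The study sampled muscle, head kidney (the blood-forming and endocrine kidney of fish, written headkidney in the labels) and gonads of females and males at 3 labelled stages of the return migration, which are ocean, river and spawning. No strain, treatment agent or genetic change is given, and the labels give no age. There were 76 libraries of polyA-selected RNA in 18 groups of 3 to 5, from 28 fish, and a library is called here by its group and fish number. The gonads of females are called ovary and those of males testis.

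Chromatin regulators decide how DNA is wrapped on nucleosomes and which stretches can be read. Writers and erasers place or remove acetyl and methyl groups on histone tails, readers bind those groups, remodellers slide or evict nucleosomes, and Polycomb proteins and DNA methylation keep genes silent. In germ cells of vertebrates these proteins take part in meiosis and in the repackaging of chromatin in sperm, and in muscle the class IIa deacetylases are known as repressors of muscle genes in mammals.

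The depth was 1.27e+07 to 1.77e+07 counts per library in gonads, 1.37e+07 to 1.87e+07 in head kidney and 1.58e+07 to 2.93e+07 in muscle. Levels are given in CPM, counts relative to the library size after TMM scaling within each tissue and sex, and a difference was called when the adjusted p of edgeR's quasi-likelihood test was under 0.05 over all genes tested. Of the members 83 had enough counts for a test in all 6 combinations of tissue and sex, 7 in some of them (brd8a, hdac11, l3mbtl3, prdm11, prdm13, prdm6 and prdm8b), and 5 in none (hmga2, hmgn3, prdm12b, prdm8 and setdb1a). The library of river male muscle 6 stood apart from its group and lay near the spawning libraries. The summed level of 6 skeletal muscle markers was 1241 CPM there against a median of 7429 CPM in river male muscle. The counts of members called in male muscle at spawning are therefore given with and without it. Fold changes and the other counts of male muscle come from fits that include it unless stated. The scaling matters in muscle, for a reason that was not tested, and changes there are changes relative to the typical gene. With libraries scaled by their totals only, the median log2 fold change of all genes at spawning was 0.76 in female and 1.18 in male muscle, against -0.01 and 0.03 with TMM. In whole tissue, fewer cells of a type and less RNA per cell cannot be told apart.

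At spawning against the ocean stage, fallers outnumbered risers among the called members in muscle and testis, the counts were close to even in ovary, and few members were called in head kidney; in muscle the order of fallers and risers turned with scaling by library totals. In female muscle 8 of 83 members were called higher and 29 lower, while 25.8% of all tested genes were called higher and 24.7% lower. In male muscle 5 were higher and 30 lower of 83, against 20.2% and 20.0% of all genes, and without river male muscle 6 the counts were 7 and 33 against 25.6% and 24.5%. The order of risers and fallers in muscle depended on the scaling. With library totals only, 34 members were called higher and 9 lower in females, and 27 and 4 in males. The median of all genes also rose with that scaling, as given above. Shares of all genes called with library totals are not given, here or below. Such counts therefore do not show where the members stood against all genes.

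In testis 29 of 86 members were called higher and 47 lower, where 40.7% and 43.2% of all genes were called, and with library totals the counts were 29 and 44. In ovary 14 of 89 were higher and 16 lower, against 16.3% and 20.0% of all genes, and with library totals 27 were higher and 9 lower. In female head kidney 1 of 88 was higher and 5 lower, against 4.77% and 3.15%, and in male head kidney 1 of 87 was higher and 3 lower, against 4.17% and 2.6%. The median log2 fold change of the tested members was -0.32 in female muscle, -0.56 in male muscle and -0.58 in testis, where the medians of all genes were -0.01, 0.03 and -0.12. It was 0.04 in ovary, -0.15 in female and -0.16 in male head kidney, against -0.02, -0.06 and -0.10 for all genes.

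**Figure D1:**
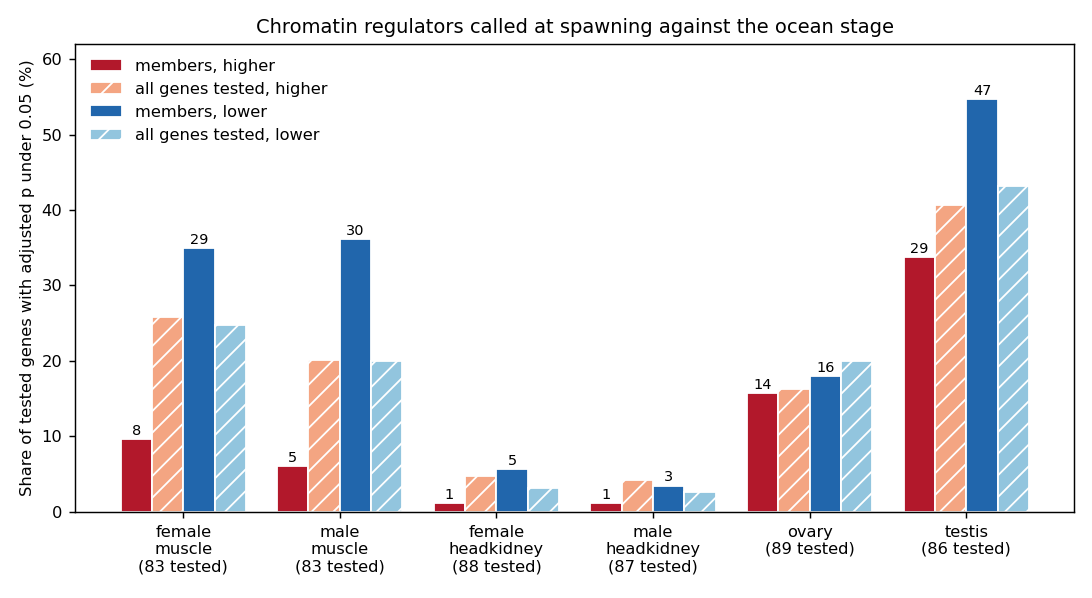
Share of tested genes (%) with an adjusted p under 0.05 at spawning against ocean, by tissue and sex, for the chromatin regulators (solid bars, with the number of members above each) and all tested genes (hatched bars), higher in red and lower in blue. Members were called lower more often than higher in muscle (29 against 8 in females, 30 against 5 in males) and testis (47 against 29) with TMM scaling; in muscle the order turns with scaling by library totals (9 against 34 and 4 against 27).

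Between ocean and river no member was called in muscle, head kidney or ovary by edgeR, at 0.0415% of all genes in female muscle, 0.145% in male muscle, 0.117% in female head kidney, and 0.0% in male head kidney and ovary. At an unadjusted p under 0.05 there were 5, 7, 10, 9 and 5 members in female muscle, male muscle, female head kidney, male head kidney and ovary, and DESeq2 called 1 in female muscle, 1 in female head kidney and 0 in the rest. With library totals, 25 members were called higher and 1 lower in male muscle, so the lack of calls there holds for levels relative to the typical gene. In testis 20 members were called higher and 21 lower on entering the river, against 25.8% and 13.4% of all genes, and with library totals 15 were higher and 35 lower.

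Across the 6 combinations of tissue and sex, cbx1b and smarca1 were the members called lower at spawning in all 6. These are 2.41% of the 83 members tested in all 6, where 12 of 19345 genes so tested, or 0.062%, were called lower in all 6. No member was called higher in 4 or more, where 5.54% of those genes were. In both directions in different combinations, 25 members were called (30.1% of the 83, against 34.1% of those genes). Called in none was 1 of the 83, or 1.2%, against 4.76% of those genes. Of the 90 members tested anywhere it was 3, among them hdac11 and prdm11, which were tested in 2 and 4 combinations. The summed share of all counts that the 95 members took went another way in muscle than their scaled levels. In female muscle it was 0.0810% ± 0.0106 (SD, n = 4) in ocean, 0.122% ± 0.0114 (n = 4) in river and 0.136% ± 0.0157 (n = 4) at spawning. In male muscle it was 0.0631% ± 0.0157 (n = 4), 0.116% ± 0.0121 (n = 5) and 0.103% ± 0.00632 (n = 3). In both sexes every river and every spawning library lay above every ocean library, so the share was already higher in the river, and the male mean was lower at spawning than in the river, with overlapping libraries. In testis it fell from 0.443% ± 0.0184 in ocean through 0.392% ± 0.0274 in the river to 0.284% ± 0.0176 at spawning (n = 5 each), and the ocean and spawning libraries did not overlap.

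**Figure D2:**
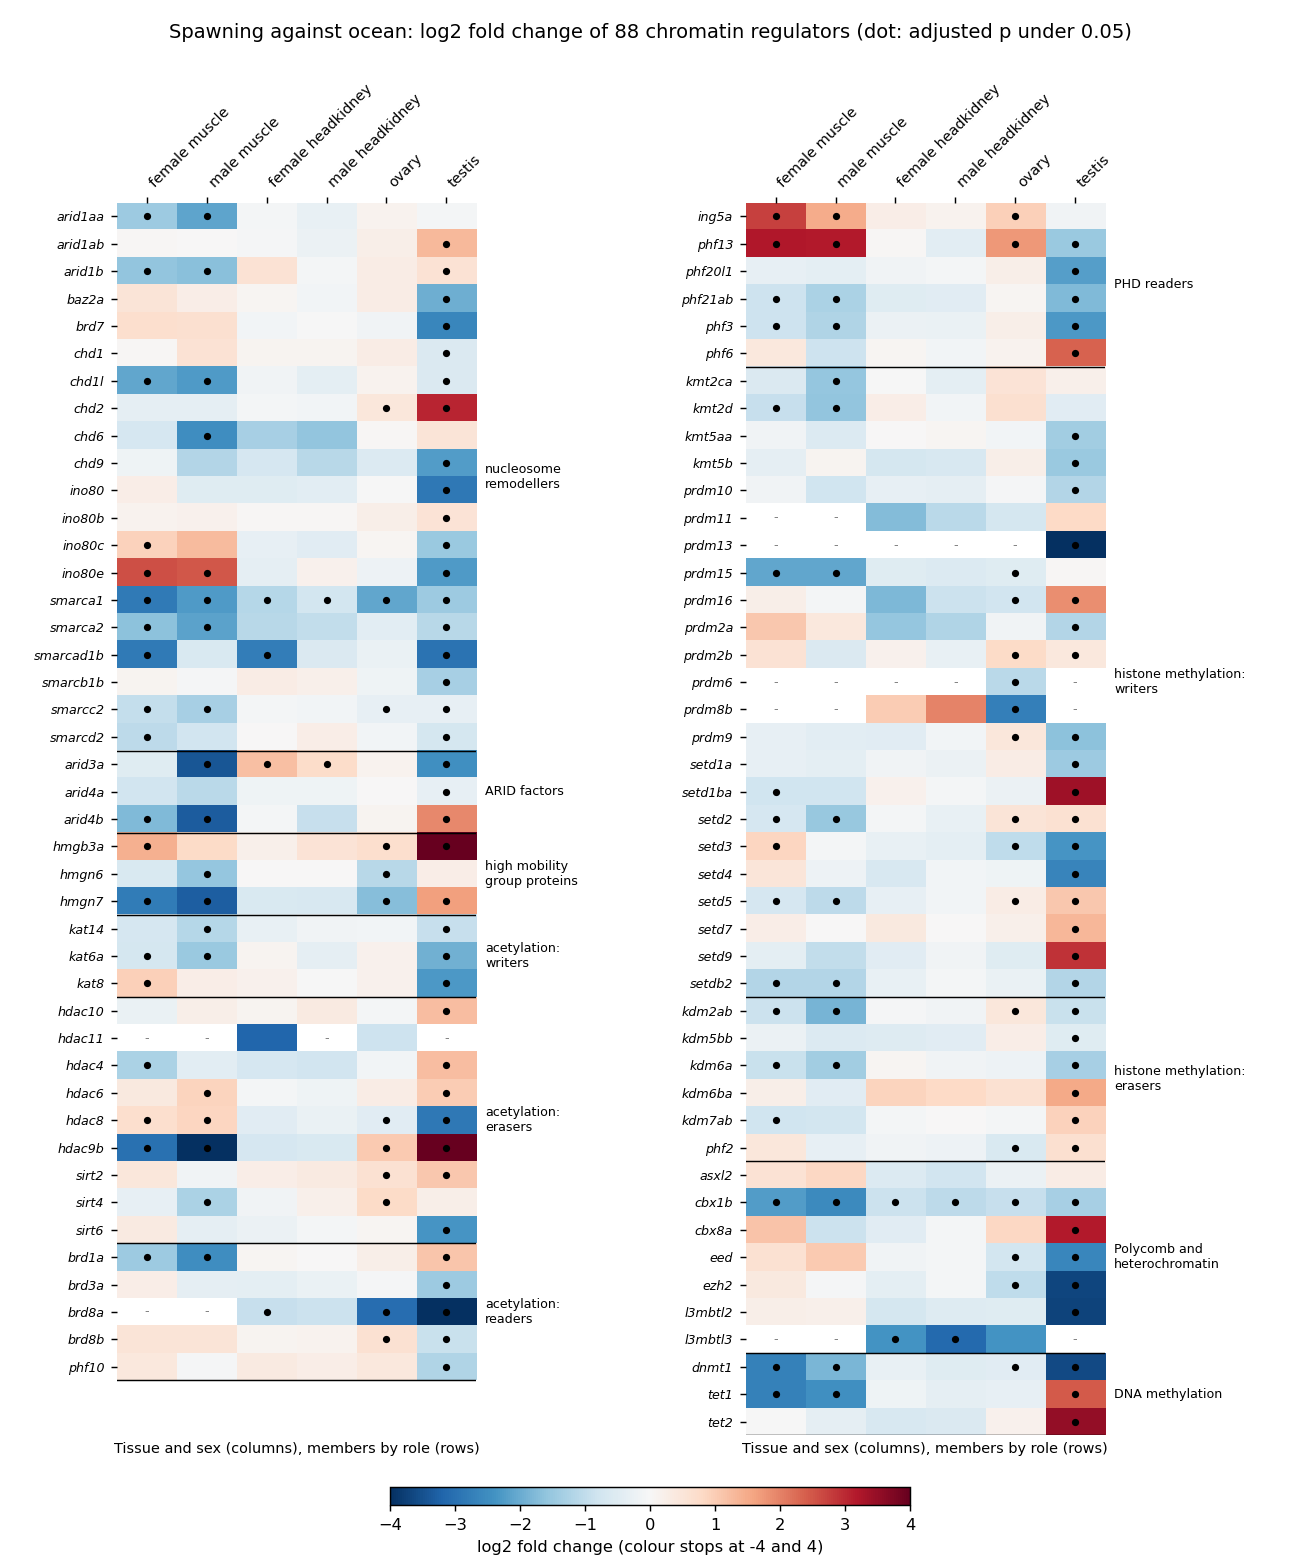
Log2 fold change at spawning against ocean of 88 members (rows, by role) in the 6 combinations of tissue and sex (columns), with the colour stopped at -4 and 4, a dot where the adjusted p was under 0.05 and a dash where the member had too few counts. The cbx1b and smarca1 rows carry a dot in every column, and head kidney carries few dots; in muscle most blue called cells lose their call, and some turn, with scaling by library totals.

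Cbx1b is a chromobox protein of the HP1 family, which in mammals binds methylated histone H3 in heterochromatin. In male head kidney it measured 26.0, 28.3, 30.7 and 33.5 CPM in the ocean libraries, 39.6, 48.7, 35.3 and 40.0 in the river and 12.4, 15.2, 13.9 and 16.1 at spawning. The spawning libraries lay below every ocean and every river library, and the log2 fold change against ocean was -1.04 ± 0.15 (SE, adjusted p = 0.00262). The change against ocean was -2.23 ± 0.32 in female muscle, -2.54 ± 0.62 in male muscle, -0.87 ± 0.19 in female head kidney, -0.92 ± 0.18 in ovary and -1.31 ± 0.20 in testis. The groups did not overlap in any of these combinations. In female head kidney the call was lost without ocean female headkidney 2 or 7 (adjusted p = 0.0508 and 0.0566), and in male muscle it was lost with library totals.

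Smarca1 is the ISWI-type ATPase SNF2L, a motor that spaces nucleosomes. In ovary it measured 49.3, 73.7, 50.0 and 46.8 CPM in the ocean, 45.5, 48.8, 56.3 and 50.5 in the river and 8.39, 14.1, 14.2, 12.8 and 15.4 at spawning. All 5 spawning ovaries lay below every ovary of the other stages (log2 fold change against ocean -2.08 ± 0.18, adjusted p = 6.8e-06). The change was -2.82 ± 0.31 in female muscle, -2.28 ± 0.72 in male muscle, -1.13 ± 0.19 in female head kidney, -0.75 ± 0.19 in male head kidney and -1.46 ± 0.22 in testis. In male head kidney the ocean and spawning libraries overlapped, and the call was lost without each of 8 of the 12 libraries (ocean 1, 6 and 9, river 2 and 3, spawning 6, 7 and 9, adjusted p 0.0538 to 0.0944). In male muscle it was lost without ocean 1, spawning 8 or spawning 9 (adjusted p 0.0518 to 0.0951) and with library totals.

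**Figure D3:**
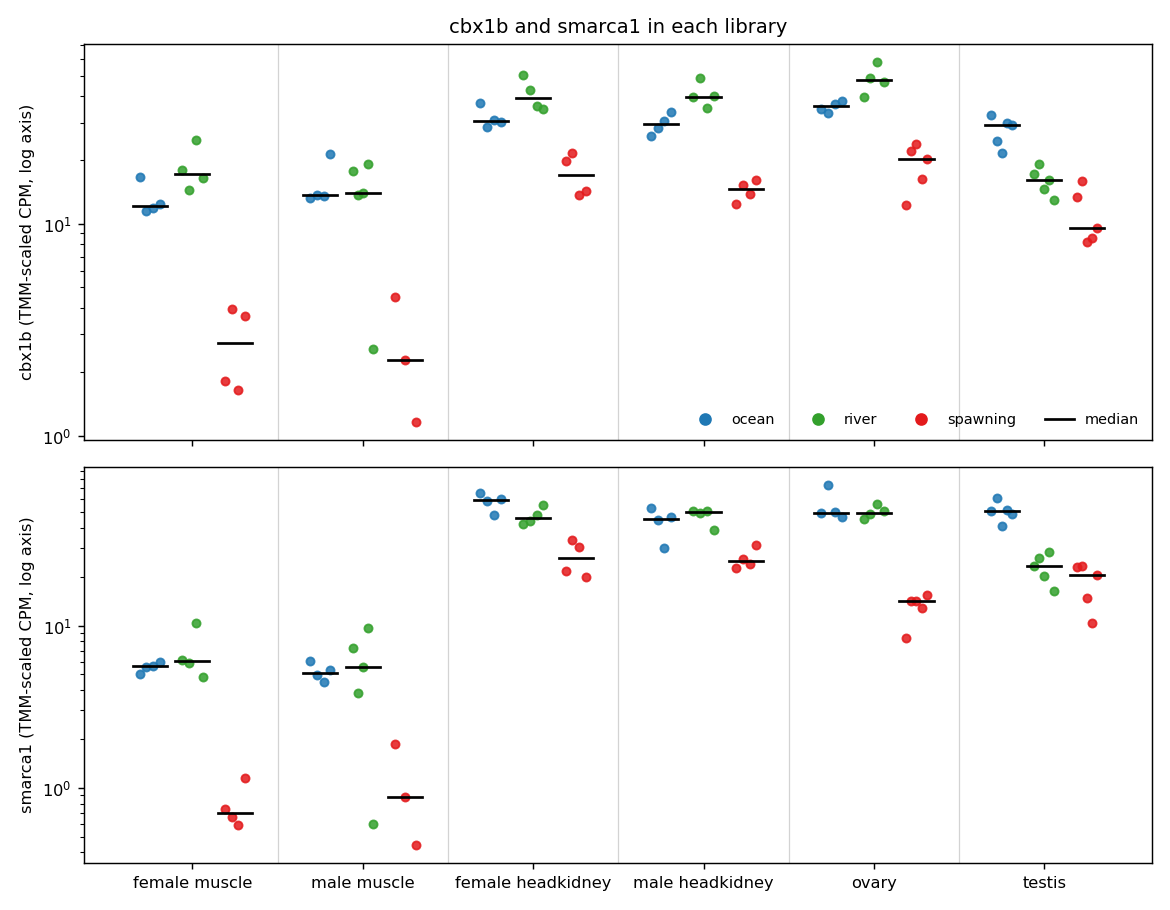
Level of cbx1b (upper panel) and smarca1 (lower panel) in every library (points, TMM-scaled CPM on a log axis, scaled apart for each tissue and sex) by stage, with the median as a bar. Spawning libraries lie below the ocean libraries except for smarca1 in male head kidney, where the groups overlap. River male muscle 6 lies among the spawning males for both genes, and in testis the river libraries are already below the ocean libraries. In male muscle the calls are lost with scaling by library totals.

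In spawning muscle, members of most roles were called lower in both sexes, and a small set rose. Of the 83 members tested in both sexes, 24 were called lower in both, out of 29 in females and 30 in males, 4 were called higher in both, out of 8 and 5, and none was called in opposite directions. That is 28.9% lower and 4.82% higher in both, where 14.8% and 16.6% of the 21123 genes tested in both sexes were; these shares rest on TMM scaling, and with library totals risers outnumbered fallers in each sex. Of the 29 members that fell in females, 9 were still called lower with library totals (arid1b, cbx1b, dnmt1, hdac9b, hmgn7, prdm15, smarca1, smarcad1b and tet1), 16 kept the sign without a call and 4 turned. In males, 4 of the 30 were still called lower, among them arid3a, hdac9b and hmgn7, 24 kept the sign and 2 turned, while all risers of both sexes stayed called higher. Skeletal muscle markers moved with the stage: the sum of 6 of them was 7581 to 12506 CPM in ocean and 467 to 3104 CPM in spawning females, and 8362 to 22634 and 688 to 1340 CPM in males. Their part in the members' changes was not tested.

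Among the erasers, hdac9b, a class IIa deacetylase that in mammals binds MEF2 factors and represses muscle genes, fell most in both sexes. In females it measured 21.5, 19.4, 54.3 and 33.3 CPM in the ocean, 28.6, 48.3, 43.4 and 45.6 in the river and 3.72, 2.27, 5.83 and 4.28 at spawning. In males it measured 59.1, 33.8, 20.9 and 8.17 CPM in the ocean, 29.7, 40.1, 36.4, 35.3 and 2.57 in the river and 1.20, 0.878 and 0.222 at spawning. The spawning libraries of both sexes lay below all ocean libraries, and the low river value is that of river male muscle 6. The log2 fold change against ocean was -2.99 ± 0.38 in females (adjusted p = 4.0e-05) and -5.29 ± 1.00 in males (adjusted p = 0.00323). Against river it was -3.36 ± 0.38 and -5.21 ± 0.98. Hdac8, a class I deacetylase, went the other way, by 0.68 ± 0.22 in females and 0.85 ± 0.28 in males, and hdac6, a deacetylase known for acting on tubulin, rose in males (0.90 ± 0.27). The call of hdac8 was lost in females without ocean female muscle 2 (adjusted p = 0.060) and in males without ocean 3, ocean 9, spawning 8 or spawning 9 (0.0513 to 0.0927), and that of hdac6 without ocean 3, spawning 8 or spawning 9 (0.0516 to 0.0994).

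Of the 3 DNA methylation enzymes, dnmt1 and tet1 were called lower in both sexes and tet2 was not called. Dnmt1, which copies methylation onto newly made DNA, measured 8.61, 8.16, 2.96 and 5.13 CPM in ocean, 4.63, 3.96, 5.49 and 2.71 in river and 1.02, 0.907, 1.01 and 0.822 in spawning females. The 4 spawning libraries were close to each other and below all others (log2 fold change against ocean -2.72 ± 0.36). Tet1, a dioxygenase that oxidises methylated cytosine, measured 2.66, 2.20, 3.61 and 2.03 CPM in ocean and 0.279, 0.454, 0.504 and 0.329 in spawning females, a change of -2.71 ± 0.35. Proliferation markers summed to 23.9 to 39.8 CPM in ocean and 18.6 to 26.0 CPM in spawning females over 9 genes. In males dnmt1 changed by -1.83 ± 0.62 and tet1 by -2.46 ± 0.80; the calls were lost without ocean 1, spawning 8 or spawning 9, for dnmt1 also without ocean 3 (adjusted p 0.0698 to 0.118 and 0.0725 to 0.101), and with library totals.

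Hmgn7, a nucleosome-binding high mobility group protein, had 32.9, 13.3, 20.5 and 25.4 CPM in ocean females and 2.84, 2.47, 1.72 and 6.20 at spawning, with 30.8 to 51.9 in the river. In males it had 22.5, 34.5, 19.9 and 35.4 CPM in the ocean and 3.72, 2.59 and 2.18 at spawning. No spawning library reached an ocean library in either sex, and the log2 fold changes were -2.80 ± 0.40 and -3.31 ± 0.58. Hmgb3a, a high mobility group protein that bends DNA, rose in females from 87.7 ± 18.6 CPM (SD, n = 4) to 237 ± 60.0 CPM (n = 4), a change of 1.43 ± 0.24. Ezh2 and eed, subunits of the Polycomb complex PRC2, were not called at spawning against ocean in either sex; against river, eed was called higher in females (1.21 ± 0.30, adjusted p = 0.00493).

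Among the remodellers, the ISWI motor smarca1, the SWI/SNF genes arid1aa, arid1b, smarca2 and smarcc2, and chd1l were called lower in both sexes. Arid1aa, the DNA-binding subunit of SWI/SNF, fell from 21.0 ± 1.35 CPM (SD, n = 4) to 7.60 ± 2.30 (n = 4) in females and from 19.6 ± 5.46 (n = 4) to 4.52 ± 1.59 (n = 3) in males, with log2 fold changes of -1.46 ± 0.25 and -2.12 ± 0.42; with library totals it lost its call in both sexes. Of the 20 remodellers 8 were called lower and 2 higher in females and 7 lower and 1 higher in males, where 24.7% of all genes were lower and 25.8% higher in females and 20.0% and 20.2% in males; this excess of fallers was seen with TMM scaling, and the roles were not compared by a test. The remodeller gene called higher in both was ino80e, a subunit of the INO80 remodeller, from 0.959 ± 0.362 to 5.82 ± 2.37 CPM in females (2.58 ± 0.47) and by 2.48 ± 0.66 in males, where the call was lost without spawning male muscle 9 (adjusted p = 0.0519).

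The PHD finger readers ing5a and phf13 had the largest called rises in female muscle and rose in males too. Ing5a, a subunit of acetyltransferase complexes in mammals, measured 6.03, 3.39, 7.15 and 5.49 CPM in ocean, 4.20, 3.92, 7.18 and 4.24 in river and 50.4, 27.1, 34.5 and 34.0 in spawning females. In males it measured 7.50, 10.2, 5.24 and 8.61 CPM in the ocean, 4.14, 2.81, 3.95, 3.49 and 13.7 in the river and 14.7, 26.2 and 24.9 at spawning. Every spawning library lay above every ocean library, and the highest river male was again fish 6. The changes were 2.73 ± 0.30 in females (adjusted p = 1.7e-05) and 1.48 ± 0.50 in males, where the call was lost without ocean 1, 8 or 9 or spawning 8 or 9 (adjusted p 0.0535 to 0.0943). Phf13, a reader of methylated H3, rose by 3.20 ± 0.60 in females, from 0, 0.286, 0.657 and 0.356 CPM to 2.42, 4.00, 3.86 and 1.75, and by 3.16 ± 0.98 in males, where ocean 1, ocean 3 and spawning 9 were each needed for the call (adjusted p 0.0541 to 0.0876 without them). Phf3 and phf21ab of the same role fell in both sexes.

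Among the writers of histone marks, kat8, the acetyltransferase of H4 lysine 16 in mammals, rose in females. It went from 5.86 ± 0.890 to 11.4 ± 1.62 CPM (SD, n = 4 each), a change of 0.96 ± 0.22. Setd3 was placed with the histone methylation writers by its symbol, though in mammals it methylates a histidine of actin. It rose by 0.87 ± 0.26 in females with overlapping groups. Of 19 members of that role tested, 6 were called lower and 1 higher, setd3, in females. In males 6 were lower and 0 higher, against the same shares of all genes as for the remodellers. Prdm15 fell most of them in both sexes (-2.07 ± 0.45 in females). The demethylase kdm2ab fell by 0.84 ± 0.20 in females and by 1.85 ± 0.39 in males, from 20.0 ± 3.58 (n = 4) to 5.56 ± 0.919 CPM (n = 3).

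Counts in male muscle moved with single libraries. Without ocean 1, ocean 3, spawning 8 or spawning 9, the 35 members called at spawning against ocean became 18, 22, 15 and 12. Against river, 1 member was called higher and 25 lower, where 8.36% and 14.9% of all genes were called. Without river male muscle 6 these became 8 and 35, against 25.9% and 24.7%. Without river 2, 3, 4 or 5 the calls numbered 12, 15, 10 and 13, and without spawning 8 or 9 they numbered 5 each. Shares of all genes without a library other than river male muscle 6 are not given, here or for head kidney below. These counts therefore do not show whether the members moved more than all genes. In female muscle 10 were higher and 27 lower against river, where 24.9% and 23.5% of all genes were called, and with library totals 12 were higher and 19 lower.

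In head kidney few members were called at spawning: l3mbtl3, cbx1b and smarca1 were lower and arid3a higher in both sexes, and smarcad1b and brd8a were called lower in females alone, a difference between the sexes that did not pass its own test. L3mbtl3, an MBT protein that binds methylated lysines, measured 10.1, 12.6, 12.8 and 12.9 CPM in ocean, 7.32, 13.3, 13.9 and 7.35 in river and 2.34, 2.14, 1.49 and 3.30 in spawning females. In males it measured 12.6, 12.6, 9.54 and 12.3 CPM in the ocean, 9.82, 9.79, 13.5 and 11.3 in the river and 1.68, 1.47, 1.20 and 1.04 at spawning. The spawning libraries of both sexes lay far below all others, with log2 fold changes against ocean of -2.38 ± 0.31 (adjusted p = 0.00228) and -3.12 ± 0.23 (adjusted p = 0.000182). The call held in each fit that left out a library. Of the 87 members tested in both sexes 3.45% were lower and 1.15% higher in both, where 0.862% and 2.38% of all genes tested in both were.

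Arid3a, a DNA-binding factor known from B cells of mammals, measured 19.6, 15.0, 21.8 and 18.6 CPM in ocean and 40.2, 34.7, 29.5 and 68.7 in spawning females, and 16.0, 22.1, 17.1 and 16.7 in ocean and 29.1, 27.9, 25.9 and 37.0 in spawning males. All spawning libraries lay above all ocean libraries of their sex (1.21 ± 0.28 and 0.74 ± 0.17). The call was lost without any of the 4 ocean females (adjusted p 0.0502 to 0.0737), in males without ocean 1, ocean 9, spawning 6, spawning 7 or spawning 10 (0.0522 to 0.0798), and in males with library totals.

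Some members split widely among head kidney libraries of a stage. Tet2, not called there at spawning, measured 5.12, 4.04, 26.8 and 42.7 CPM in river and 5.36, 7.29, 17.3 and 46.4 in spawning females. In males it measured 44.9, 14.8, 6.17 and 30.3 CPM in ocean and 26.6, 29.1, 3.55 and 4.78 at spawning. Asxl2 was at 7.32, 10.7, 42.7 and 66.3 CPM in river females, while brd7 was at 45.4, 46.1, 40.3 and 42.6. The part of this spread in the few calls was not tested. The remodeller smarcad1b was uneven among ocean females. It measured 70.7, 10.5, 7.54 and 71.5 CPM in ocean, 17.3, 6.85, 6.96 and 4.28 in river and 5.49, 7.85, 6.41 and 3.62 in spawning females, so its fall of -2.77 ± 0.74 rested on ocean fish 2 and 7, and the call was lost without either (adjusted p up to 0.126 over 9 such libraries). Brd8a, a subunit of the NuA4 acetyltransferase complex, fell by 0.93 ± 0.24 in females, and its call was lost in 8 of 12 such fits (adjusted p 0.0553 to 0.0991); in males it changed by -0.87 ± 0.26 without a call (adjusted p = 0.0675). Markers of other kidney cells varied among libraries of a stage: 21 renal tubule genes summed to 29.2 to 1472 CPM in river and 35.1 to 2413 CPM in spawning females, and 5 steroidogenic genes to 28.3 to 8705 CPM in spawning females. Leukocyte markers summed to 1480 to 2900 CPM in spawning and 1543 to 1821 CPM in ocean females over 9 genes. The part of these cells in the members' changes was not tested.

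The count of 6 called members in female head kidney became 2 without ocean 2 or ocean 7, and the count of 4 in males became 2 without ocean 1, ocean 9 or spawning 7. Against river, 0 members were higher and 5 lower in females, where 3.9% and 4.56% of all genes were called, and 3 were called without river 7. In males 0 were higher and 6 lower, where 4.3% and 4.92% were called; without spawning 7 or river 2 there were 2, and without river 3, spawning 6, spawning 9 or spawning 10 there were 3. L3mbtl3 and cbx1b led these as well, at -2.18 ± 0.31 and -1.24 ± 0.19 in females and -3.03 ± 0.23 and -1.51 ± 0.15 in males.

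In ovary the paralogs brd8a and brd8b moved apart, the PRC2 subunits ezh2 and eed fell, and the PHD finger readers ing5a and phf13 rose. These were 2 of 6 PHD readers, where 16.3% of all genes were called higher. Brd8a measured 10.3, 7.75, 9.80 and 7.79 CPM in the ocean, 8.43, 9.94, 9.46 and 11.2 in the river and 0.651, 0.656, 2.01, 1.25 and 0.788 at spawning. All spawning ovaries lay below all others (log2 fold change against ocean -3.05 ± 0.31, adjusted p = 2.0e-05). Its paralog brd8b rose by 0.60 ± 0.13, from 17.5 ± 1.72 (SD, n = 4) to 26.6 ± 2.67 CPM (n = 5).

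Ezh2, the methyltransferase of PRC2 that marks H3 lysine 27, measured 54.4, 42.2, 55.5 and 47.5 CPM in ocean, 41.0, 43.3, 44.2 and 38.9 in river and 23.7, 25.6, 28.0, 23.7 and 23.0 in spawning ovaries. Its partner eed fell from 23.3 ± 0.617 (SD, n = 4) to 13.9 ± 0.788 CPM (n = 5). Both fell without overlap, by 1.01 ± 0.11 and 0.75 ± 0.11, and with library totals both stayed called lower. Dnmt1 changed by -0.46 ± 0.14 with overlapping groups, and the call was lost without ocean 4, ocean 5, spawning 2 or spawning 5 (adjusted p 0.0556 to 0.067) and with library totals.

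Ing5a rose in ovary as in muscle, from 17.7, 26.4, 20.3 and 23.3 CPM in the ocean to 41.5, 45.1, 43.4, 46.3 and 37.8 at spawning (0.97 ± 0.13, adjusted p = 0.000108), and phf13 rose by 1.73 ± 0.39. Hmgn7 fell from 66.4, 50.8, 68.9 and 42.4 CPM to 12.7, 18.5, 22.8, 14.1 and 18.8 (-1.72 ± 0.19) and hmgn6 by 1.12 ± 0.17. Setd3 fell from 21.1 ± 3.79 (SD, n = 4) to 10.5 ± 1.86 CPM (n = 5), by 1.01 ± 0.15. Prdm9, which in mammals sets the sites of meiotic recombination, was called higher by 0.44 ± 0.15, and the call was lost without ocean 5, ocean 7, spawning 2, spawning 4 or spawning 5 (adjusted p 0.0578 to 0.106).

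Against river, 21 members were higher and 14 lower in ovary, where 16.8% and 21.0% of all genes were called, and with library totals 26 and 9. The leading genes were ing5a (0.96 ± 0.13) and the CHD remodeller chd2 (0.51 ± 0.09) among the risers, and smarca1 (-1.95 ± 0.18), brd8a (-3.19 ± 0.32) and hmgn7 (-1.93 ± 0.19) among the fallers. Proliferation markers summed to 521 to 594 CPM in ocean, 329 to 387 in river and 34.5 to 162 in spawning ovaries over 14 genes, 7 gonad somatic markers to 49.5 to 128 CPM in ocean and 318 to 914 CPM at spawning, and 8 germ cell markers to 39.2 to 47.3 and 13.9 to 55.2 CPM. Their part in the members' changes was not tested.

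Testis had more called members than muscle, head kidney or ovary, and also more called genes in all. All 3 acetyltransferases, 14 of 20 remodellers, 4 of 6 acetylation readers and 4 of 6 PHD readers were called lower at spawning, where 43.2% of all genes were lower and 40.7% higher. Risers were 5 of 8 deacetylases and sirtuins tested, against 2 that fell, 2 of 3 high mobility group proteins, and both TET enzymes. Histone methylation writers went 7 up and 10 down of 21, and demethylases 3 up and 3 down of 6. Whether the roles differed from each other was not tested. For the genes named below the spawning and ocean libraries did not overlap.

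Dnmt1 measured 416, 469, 430, 397 and 369 CPM in the ocean, 181, 276, 199, 327 and 191 in the river and 38.7, 34.6, 35.2, 29.5 and 31.2 at spawning. Ezh2 measured 220, 247, 267, 215 and 239 CPM in the ocean, 135, 210, 161, 193 and 131 in the river and 18.7, 21.1, 21.1, 18.1 and 13.5 at spawning. Each stage lay below the stage before it without overlap for both genes, and the log2 fold changes of spawning against ocean were -3.62 ± 0.19 (adjusted p = 1.2e-10) and -3.68 ± 0.18 (adjusted p = 6.0e-11). The steps were -0.83 ± 0.17 and -2.79 ± 0.18 for dnmt1, ocean to river and river to spawning, and -0.52 ± 0.16 and -3.17 ± 0.18 for ezh2. Eed fell by 2.62 ± 0.18 and the MBT protein l3mbtl2 by 3.69 ± 0.18, from 75.7 ± 6.26 to 5.85 ± 1.28 CPM (SD, n = 5 each). The chromobox gene cbx8a, of the Polycomb complex PRC1, rose by 3.16 ± 0.29.

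Prdm13, a PRDM factor known for neural development in mice, was measured in testis and hardly elsewhere. It had 4.94, 8.62, 11.6, 8.07 and 13.0 CPM in the ocean, 20.5, 22.5, 23.3, 36.2 and 26.6 in the river and 0, 0, 0, 0.0707 and 0 at spawning. Over the group that was 736 counts in the ocean, 1664 in the river and 1 at spawning, a level 708-fold higher in the ocean than at spawning (95% exact interval 127 to 28000) and 1629-fold higher in the river (292 to 64390), intervals that cover counting error only. It was called higher in the river than in the ocean (1.48 ± 0.28). In muscle and head kidney of both sexes and in ovary it had at most 5 counts in any library and was not tested.

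Among the other members placed with the writers, kat8 fell from 52.6 ± 4.21 to 10.7 ± 1.02 CPM (SD, n = 5 each), a change of -2.30 ± 0.12. Setd3 fell by 2.36 ± 0.18 and prdm9 by 1.64 ± 0.17. Setd1ba, a methyltransferase of H3 lysine 4, rose from 2.28 ± 0.659 to 24.1 ± 2.21 CPM (3.40 ± 0.35). The H3 lysine 27 demethylases kdm6a and kdm6ba moved apart, by -1.31 ± 0.16 and 1.51 ± 0.20. Remodellers that fell included brd7, a SWI/SNF subunit, from 100 ± 6.30 to 16.5 ± 1.85 CPM (-2.60 ± 0.13), and smarcad1b (-2.96 ± 0.17). Another was ino80, from 130, 125, 125, 130 and 139 CPM in the ocean to 17.3, 22.0, 13.9, 20.8 and 15.0 at spawning. Chd2 rose, with 16.2, 23.3, 30.0, 23.2 and 29.7 CPM in the ocean, 52.2, 42.5, 34.7, 39.2 and 48.6 in the river and 190, 186, 221, 248 and 175 at spawning (3.06 ± 0.19).

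Hdac9b went from 0, 0.0643, 0.207, 0.132 and 0 CPM in the ocean through 0.902, 0.397, 0.966, 0.426 and 1.57 in the river to 34.3, 17.2, 35.6, 31.1 and 30.6 at spawning. The 3 stages did not overlap; the fitted log2 fold change of 8.44 ± 0.56 rests on very few ocean counts, and against river the rise was 5.13 ± 0.44. Hmgb3a rose from 8.14, 11.4, 8.89, 6.88 and 12.2 CPM in the ocean to 207, 240, 185, 188 and 159 at spawning (4.36 ± 0.30). Tet2 had 0.835, 0.514, 1.17, 0.794 and 1.56 CPM in the ocean, 2.77, 0.953, 1.32, 1.92 and 2.50 in the river and 15.9, 6.85, 7.95, 13.6 and 11.8 at spawning (3.51 ± 0.38), and tet1 rose by 2.46 ± 0.41. Hdac8 fell, from 44.5 ± 3.34 to 6.19 ± 0.584 CPM (SD, n = 5 each; -2.85 ± 0.17).

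The step from ocean to river in testis included changes that turned back by spawning and others that lasted. Brd8b measured 33.3, 39.3, 55.0, 44.1 and 43.3 CPM in the ocean, 128, 127, 173, 104 and 173 in the river and 21.5, 20.7, 23.3, 27.2 and 23.8 at spawning. Every river library lay above all others, and brd8b rose by 1.71 ± 0.17 into the river (adjusted p = 3.9e-05) and then fell by 2.60 ± 0.18. The remodeller chd9 did the same, by 1.41 ± 0.32 and -3.65 ± 0.35, and arid1b, a SWI/SNF subunit, rose by 1.04 ± 0.15. Smarca1 fell into the river (-1.14 ± 0.21), as did the methyltransferase setdb2 (-0.66 ± 0.15). At spawning against ocean, arid1b was still called higher (0.58), and smarca1 and setdb2 were still called lower. From river to spawning 29 members were higher and 43 lower, where 38.8% and 41.8% of all genes were called, and with library totals 33 and 37. The median of all genes from ocean to river was 0.25 with TMM and -0.01 with library totals, and from river to spawning it was -0.09 and 0.25.

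Cell markers moved with these stages. In testis 17 germ cell genes summed to 7355 to 13960 CPM in ocean, 8764 to 17934 in river and 9.14 to 20.1 at spawning, where piwil1, sycp3 and tdrd5 had 0 counts in all 5 libraries. Summed over 64 genes, sperm flagellum markers had 10529 to 17853, 20528 to 34552 and 275 to 538 CPM, proliferation markers over 14 genes 5576 to 6878 CPM in ocean and 44.1 to 75.7 at spawning, and 7 gonad somatic markers 71.9 to 89.9 CPM in ocean and 12810 to 31804 at spawning. The groups did not overlap for any of these sums between ocean and spawning, and their part in the members' changes was not tested.

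**Figure D4:**
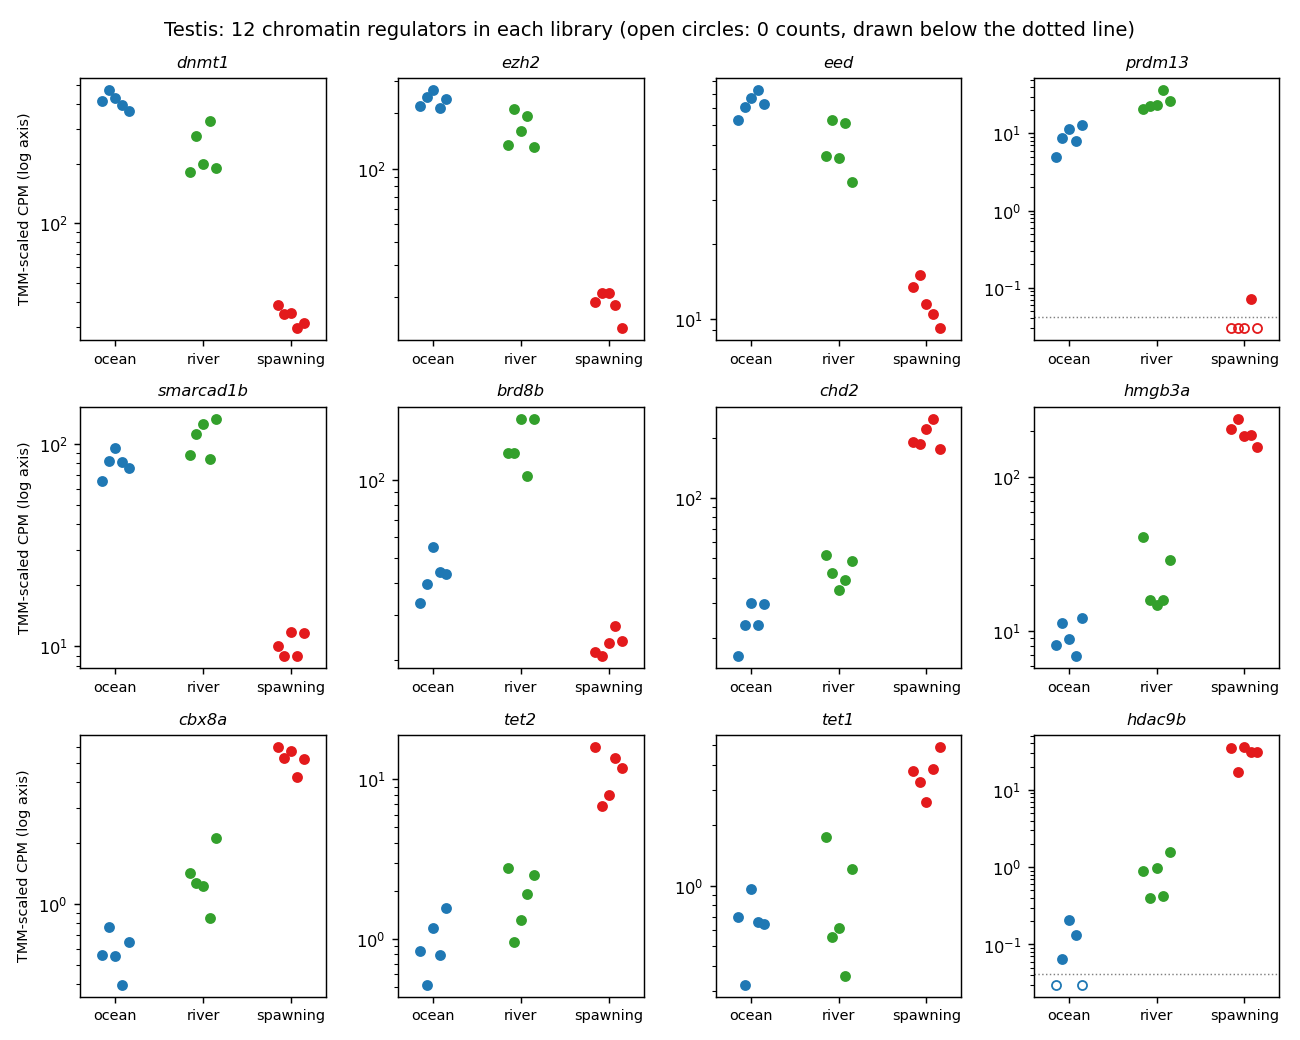
Level of 12 members in every testis library (points, TMM-scaled CPM on a log axis) at the ocean, river and spawning stages, with libraries of 0 counts as open circles. Dnmt1, ezh2 and eed step down, brd8b and prdm13 are highest in the river, and chd2, hmgb3a, cbx8a, tet2 and hdac9b step up; each of the 12 is called at spawning against ocean, with scaling by library totals as well.

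Some members that moved in both muscle and testis of males moved in opposite directions. Of the members tested in both, 12 were called in opposite directions at spawning, 9 lower in muscle and higher in testis and 3 the reverse, and 15 were called in the same direction, 14 of them lower in both. The opposite calls are 14.5% of the 83, near the 15.9% of the 20754 genes tested in both. Calls in the same direction are 18.1% against 17.2%. By direction, 16.9% of the members were lower in both, against 8.28% of those genes. Lower in muscle and higher in testis were 10.8%, against 7.41%. The muscle calls rest on TMM scaling, and the difference of the members from all genes was not tested. Hdac9b changed by -5.29 ± 1.00 in muscle and 8.44 ± 0.56 in testis. In females hdac9b was also called lower in muscle and higher in the gonad. Tet1 changed by -2.46 ± 0.80 and 2.46 ± 0.41 and hmgn7 by -3.31 ± 0.58 and 1.65 ± 0.28. In the other direction, ino80e changed by 2.48 ± 0.66 and -2.27 ± 0.27 and phf13 by 3.16 ± 0.98 and -1.5 ± 0.28. The difference between the tissues was not tested. Leaving out single libraries ended the muscle calls of tet1 (ocean 1, spawning 8 or 9, adjusted p 0.0725 to 0.101), phf13 (ocean 1, ocean 3 or spawning 9, 0.0541 to 0.0876) and ino80e (spawning 9, 0.0519), and library totals ended that of tet1.

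**Figure D5:**
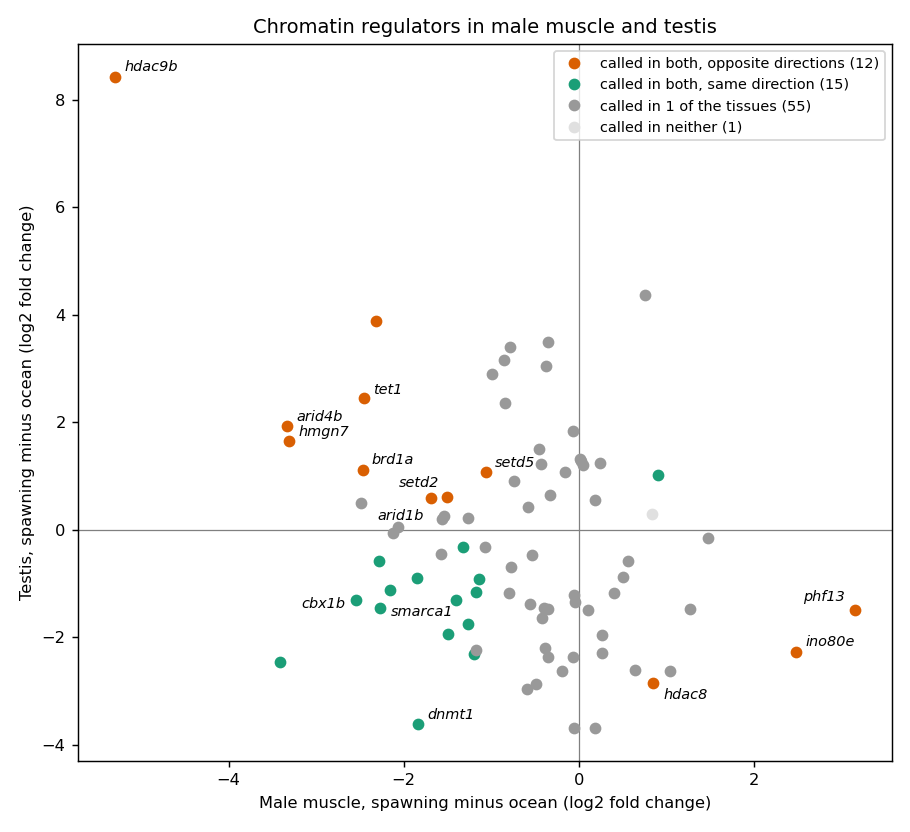
Log2 fold change at spawning against ocean in male muscle (horizontal) and testis (vertical) for the 83 members tested in both, coloured by whether both tissues called them and in which directions. The 12 members called in opposite directions include hdac9b at -5.29 and 8.44; with scaling by library totals the muscle calls of arid1b, arid4b, brd1a, setd2, setd5 and tet1 are lost, and setd5 turns in sign.

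At the ocean stage the gonads of the sexes stood in unlike relation to the other tissues. In ocean females 4 of 88 members were higher in ovary than in head kidney and 23 lower, where 24.6% and 20.8% of all genes were called, and 22 were higher and 29 lower than in muscle, where 40.2% and 30.7% were called. In ocean males 33 of 87 were higher in testis than in head kidney and 28 lower, against 34.1% and 36.7%, and 41 were higher and 23 lower than in muscle, against 38.3% and 35.3%. Called against both other tissues, 2 members were higher in ovary (prdm6 and smarcb1b), where 15.2% of all genes were, and 5 were lower (asxl2, chd2, hdac6, hmgn6 and ino80), where 5.19% were. In testis 30 members were higher than in both (34.5% of those tested, against 25.5% of all genes) and 19 lower (21.8% against 22.8%). Comparisons with muscle turn with the scaling: with library totals 79 members were higher and 4 lower in ovary than in muscle, and 71 and 9 in testis, with medians of all genes at 2.39 and 2.49 against 0.38 and 0.15. Against head kidney library totals gave 1 higher and 53 lower for ovary and 30 and 28 for testis.

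Levels in this comparison were scaled over the 3 tissues together, so they differ from the levels given above. In the ovary of ocean fish, prdm6, a PRDM factor known from smooth muscle of mice, measured 3.21, 1.07, 1.57 and 1.99 CPM, against 0.0321, 0.0720, 0.148 and 0.0377 in head kidney and 0.161, 0, 0 and 0 in muscle. It stood above both tissues in every fish, by 4.66 ± 0.66 and 5.72 ± 0.89. Asxl2, a partner of the deubiquitinase BAP1 in mammals, measured 4.79, 8.16, 3.03 and 4.88 CPM in ovary, 27.2, 26.2, 18.4 and 31.6 in head kidney and 11.6, 7.81, 7.74 and 8.19 in muscle. The ovaries were below head kidney in every fish (-2.31 ± 0.28) and overlapped with muscle (-0.76 ± 0.28), where the call was lost without ovary 2, 5 or 7 or muscle 2 (adjusted p 0.0591 to 0.0865) and the sign turned with library totals.

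In the testis of ocean fish, smarcad1b measured 41.0, 50.1, 60.3, 50.4 and 47.9 CPM against 8.34, 7.00, 6.62 and 4.69 in head kidney and 2.37, 0.585, 0.694 and 1.36 in muscle. Dnmt1 was higher in testis than in head kidney by 2.25 ± 0.25 and than in muscle by 5.14 ± 0.30, and the remodeller ino80 by 2.16 ± 0.19 and 2.89 ± 0.20. All testes lay above all other libraries for smarcad1b. Members called lower in testis than in both other tissues included hdac9b, at 0 to 0.130 CPM against 0.422 to 8.05 in head kidney and 16.8 to 116 in muscle, and hmgn7, phf6, tet1 and setd9. At spawning hdac9b, hmgn7, phf6 and tet1 rose in testis, and smarcad1b, dnmt1 and ino80 fell, where 40.7% of all genes were called higher and 43.2% lower. The ocean testes that set these genes apart are also the baseline of those changes. Low genes that rise and high genes that fall are therefore partly built in, and no conclusion is drawn from the match.

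No member was called different between females and males in muscle or head kidney. The edgeR test called 0 of 84 members for the sex difference averaged over stages and 0 for the interaction of sex and stage in muscle, and 0 of 88 in head kidney for both, where 0.628%, 0.0506%, 0.0523% and 0.0% of all genes were called. DESeq2 called 0 in each as well, and at an unadjusted p under 0.05 there were 6, 10, 7 and 2 members. The smallest adjusted p was 0.184, for ino80 in muscle (0.41 ± 0.14 on the log2 scale, female minus male). A p above the threshold does not show that the sexes were alike.

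Other chromatin genes outside the members, 71 genes of 7 lists chosen by symbol, were counted in the same way. In testis 39 of 66 tested were lower at spawning and 18 higher, against 43.2% and 40.7% of all genes, and their median was -0.97. In female muscle 21 of 62 were higher and 11 lower, against 25.8% and 24.7%, and in male muscle 17 of 63 were higher and 14 lower, against 20.2% and 20.0%; the difference from the members was not tested. In ovary 11 of 67 were higher and 13 lower, against 16.3% and 20.0%. In head kidney 2 of 67 were higher in each sex, with 3 lower in females and 1 in males, against 4.77% and 3.15% of all genes in females and 4.17% and 2.6% in males. The histone methylation genes are 1 of the 7 lists, and the other lists are not given apart. Of 16 tested in muscle, 6 were higher and 0 lower in females (prmt1, rbbp5, nsd3, smyd4, smyd5 and hcfc1b). In males 5 were higher and 1 lower. All muscle counts of these other genes were taken with TMM scaling. In testis 12 of these 16 were lower and 3 higher.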

How the data were processed

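Expected counts per gene, deposited by the authors for 76 polyA-selected libraries, were used: 36.4% of the values are not whole numbers, and they were rounded. Salmon 1.8.0, Trim Galore 0.6.4 and, as software, R 4.3.3 stand in the submitters' processing notes; what each did, the genome build and the annotation are not given in the sources used here. The tables hold symbols and no coordinates, and reads of near-identical gene copies, common in salmon, may be split between copies by the estimation.

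Members were found by their symbols. The members and the gene lists were chosen with earlier results of these data known. Groups came from the sample labels, where each fish number within a group is a separate fish. No 2 libraries of a group agreed within sampling noise.

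In R 4.3.3, edgeR 4.0.16 (filterByExpr, TMM scaling, quasi-likelihood test) was fitted to the 3 stages of each tissue and sex, to the 3 tissues of ocean females and of ocean males, and to both sexes of muscle and of head kidney. Benjamini-Hochberg adjustment ran over all tested genes, and an adjusted p under 0.05 was a call. Standard errors are the log2 fold change divided by the square root of F. On simulated data at the spread of these fits, 82 of 100 genes changed 2 log2 units were called in testis and 75 of 100 in female muscle. At 1 log2 unit 32 and 3 of 100 were called. Only 100 genes of each size were changed there, among 28149 and 21695 genes. In the data 23632 and 10950 genes were called at spawning against ocean, which makes the adjusted threshold less strict than in the simulation. Small changes can be missed, but these shares do not measure how often. Counting intervals cover counting error only.

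Members were named by these rules: per tissue and sex, the 5 largest called rises and falls at spawning whose mean log2 CPM was not under 1, and the best called member of each role; the best 3 of each other stage comparison and sex test; the 5 largest called against both other tissues; those called alike in at least 5 combinations or most often in both directions; and preset key genes. Other genes, such as chd1l, ino80c and phf21ab in females, were chosen after their values were seen. Alternatives were DESeq2 1.42.0, RLE scaling (DESeq2's size factors), library totals only, no filter, fish number as a block, and leaving out each library.

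Tissues of ocean fish share fish by number, so the block applies to the tissue comparisons: the deviations of libraries of 1 fish had a median correlation of 0.17 over 12 pairs in females and 0.11 over 11 pairs in males. Results of some withheld members are not reported here; they remain in the counts.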

Additional observations from a re-analysis of the deposited data

Results flagged for a closer look

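A library far from the rest of its group was looked for in 146 groups of values, and 15 were found. Chance alone marks about 1 in 20. The groups of values share libraries, so the 15 are not weighed against that rate and no conclusion is drawn from their number. The members' summed share of counts was 0.232% in the lowest ocean male head kidney, against 0.387% to 0.406% in the others, and 0.104% in the lowest river female muscle, against 0.126% to 0.128%. In river female muscle the highest library had 51.9 CPM of hmgn7 (the others 30.8 to 33) and the highest had 7.18 CPM of ing5a (3.92 to 4.24). In river male muscle 6, hdac9b was at 2.57 CPM (29.7 to 40.1) and ing5a at 13.7 CPM (2.81 to 4.14). Cbx1b reached 21.4 CPM in 1 ocean male muscle (13.2 to 13.7).

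L3mbtl3 was at 10.1 CPM in the lowest ocean female head kidney (12.6 to 12.9) and at 9.54 CPM in the lowest ocean male head kidney (12.3 to 12.6). Smarca1 was at 38.8 CPM in the lowest river male head kidney (49.2 to 51.0) and at 73.7 CPM in the highest ocean ovary (46.8 to 50.0). Hdac9b was at 17.2 CPM in the lowest spawning testis (30.6 to 35.6), and prdm13 was at 0.0707 CPM in 1 spawning testis and 0 in the others. In ocean female muscle, prdm6 was at 0.161 CPM in 1 library and 0 in the others, and asxl2 at 11.6 CPM in the highest (7.74 to 8.19).

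In the 13 cases reported here a member was called in opposite directions at spawning in different tissues of a sex, and the difference between the tissues was not tested. In females 4 members were called lower in muscle and higher in ovary (hdac9b, kdm2ab, setd2 and setd5), and 2 the reverse (hdac8 and setd3). In ovary hdac9b measured 3.49 to 9.6 CPM in ocean and 5.82 to 20.1 CPM at spawning, with overlapping groups. Among the 13 cases, the log2 fold changes in female muscle and ovary were 0.68 and -0.45 for hdac8, and -0.84 and 0.44 for kdm2ab. In male muscle and testis they were -1.68 and 0.58 for arid1b, 0.85 and -2.85 for hdac8, and -5.29 and 8.44 for hdac9b. They were -3.31 and 1.65 for hmgn7, 2.48 and -2.27 for ino80e, 3.16 and -1.5 for phf13, and -1.51 and 0.60 for setd2. They were -1.06 and 1.07 for setd5 and -2.46 and 2.46 for tet1. Arid3a changed by -3.42 in male muscle, 0.74 in male head kidney and -2.46 in testis. The muscle falls of these males are relative to the typical gene, and with library totals setd5 turned to 0.070 without a call.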

How the results depend on the processing

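Counts below are members called at spawning against ocean unless another comparison is named. With the fish number as a replicate block in the stage comparisons, where equal numbers are different fish and the correlations were not all over 0.1, the counts were 16 in female muscle, 17 in male muscle, 0 in head kidney of each sex and 14 in ovary. Against river the block gave 0, 1, 0, 0 and 6 in the same order, and 5 in testis from ocean to river. In the tissue comparisons, where the block pairs libraries of 1 fish, it gave 27, 50, 57 and 62 against 27, 51, 61 and 64, and it moved no count over 1.5 times there.

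With library totals only, 1 member was called in female and 26 in male muscle from ocean to river, 11 in male muscle against river, and 54 and 83 in ocean ovary against head kidney and muscle. Kat6a in female muscle turned to 0.083, setd5 in male muscle to 0.070, and against ocean female muscle hmgn6 to 1.23, asxl2 to 1.26, hdac6 to 0.95, chd2 to 0.83 and ino80 to 1.69. DESeq2 called 1 in female muscle and 1 in female head kidney from ocean to river, 8 in female head kidney against river and 9 in male head kidney.

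Leaving out each library gave 12 to 40 in male muscle and 5 to 43 there against river, 2 to 6 in female and 2 to 6 in male head kidney, and 3 to 5 and 2 to 7 there against river. Ranges elsewhere stayed within 1.5 times of the count: 29 to 42 in female muscle, 22 to 36 in ovary and 73 to 77 in testis. These ranges count members alone, without the shares of all genes in the same fits. Of 204 calls of named members, 202 held with DESeq2, 202 with RLE scaling, 193 without the filter, 131 with the block and 171 with library totals, where 7 reversed. The cause of these shifts was not tested. Groups of 3 to 5 fish and low counts of prdm6, phf13 and ino80e limit the precision.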
